A study of Mus musculus with 6 samples.

Results

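Respiratory complex I, the NADH:ubiquinone oxidoreductase of the inner mitochondrial membrane, is encoded partly by the nuclear Nduf genes. Every protein-coding gene of the deposited count table whose symbol starts with Nduf was taken, 46 of 54532 genes, without regard to its values. They comprised 38 subunit genes and 8 genes named Ndufaf, whose products assemble the complex and are not part of it. All 46 passed the filter on low counts in every comparison. Dorsal root ganglia, which hold the cell bodies of sensory neurons, had been sequenced in bulk from mice of 2 genotypes. One was Ash1l+/-, heterozygous for an altered allele of Ash1l, which encodes a histone methyltransferase, and the other was wild type (WT) littermates, with 3 libraries each. The labels name no treatment and leave out age, sex, strain, the structure of the allele and how many animals made up a library. A p-value here therefore reflects the spread among libraries, part of which may be technical.

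Complex I takes electrons from NADH, passes them through a flavin and a chain of iron-sulfur clusters to ubiquinone, and pumps protons out of the mitochondrial matrix. The matrix arm carries the electron path and the membrane arm carries the pumps. The core subunits have counterparts in bacteria, the accessory subunits surround them, and the subunits at the heart of the membrane arm are made from the mitochondrial genome. Sensory neurons supply long axons with ATP, and inherited defects of this enzyme commonly affect the nervous system.

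Total counts per library ranged from 17209294 to 20545722. Levels are CPM, counts scaled to a common library size with TMM factors, and fold changes compare Ash1l+/- with WT. WT replicate 2 stood apart, with log2 CPM correlating at 0.860 to 0.890 with the other libraries across genes, which among themselves reached 0.985 or above. Counts of members past the threshold are therefore given with all 6 libraries and with the 5 that remain without it. Fold changes of single genes are over the 5 unless 6 are named, and with 6 no gene of any list passed. Sensory neuron markers had reads in every library for 12 of 12 genes. Their summed level was 16873 to 17922 CPM in the 5 libraries and 29867 CPM in WT replicate 2. The higher sum came from few genes, as 3 of the 12 exceeded both other WT libraries there and 9 fell short of both. Uchl1 alone stood at 2850, 14227 and 2775 CPM in WT replicates 1, 2 and 3. Ash1l itself was at 60.9, 30.9 and 54.4 CPM in WT replicates 1, 2 and 3 and 66.5, 66.5 and 68.9 CPM in Ash1l+/- replicates 1, 2 and 3. Its log2 fold change was 0.46 (SE 0.27, adjusted p = 0.396) with 6 libraries and 0.22 (SE 0.08, adjusted p = 0.0593) with 5, so the level of the targeted gene does not check the genotype labels, on which every direction below rests.

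The subunit messages together were lower in every Ash1l+/- library than in any WT library. Their summed level was 3273, 15961 and 3308 CPM in WT replicates 1, 2 and 3, and 2852, 2846 and 2878 CPM in Ash1l+/- replicates 1, 2 and 3. As a share of all counts this was 0.348% and 0.347% in WT replicates 1 and 3, 1.21% in WT replicate 2, and 0.303%, 0.301% and 0.3004% in Ash1l+/- replicates 1, 2 and 3. The Ash1l+/- libraries lay close together, and so did WT replicates 1 and 3. The 8 assembly factors summed to 184, 517 and 190 CPM in WT and 182, 187 and 188 CPM in Ash1l+/-, with the groups overlapping. In bulk tissue, fewer cells of a type and less RNA per cell cannot be told apart.

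**Figure D1:**
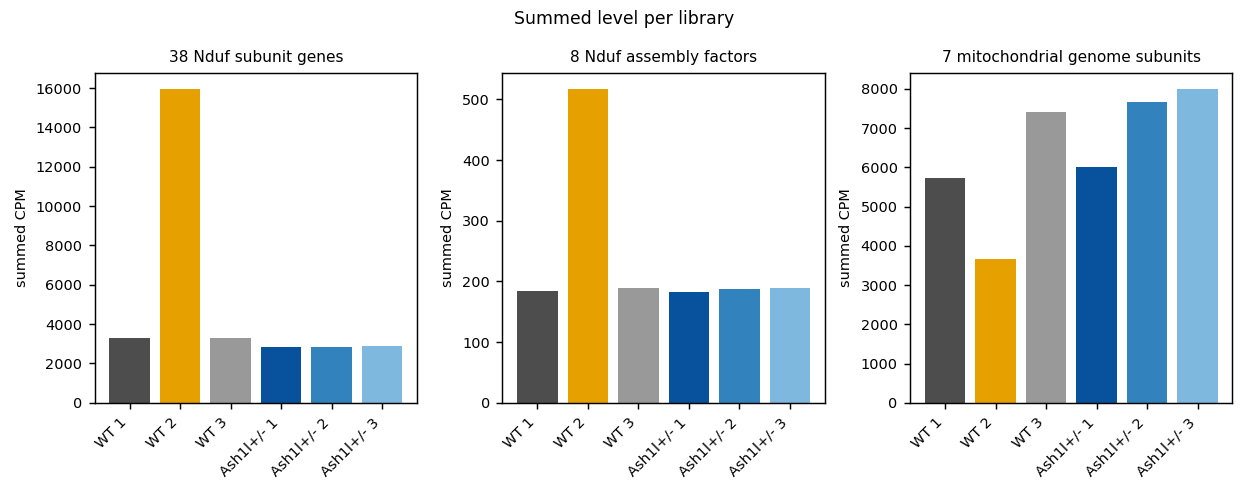
Summed CPM in each library (bars, 1 per library) for the 38 Nduf subunit genes, the 8 Nduf assembly factors and the 7 complex I genes of the mitochondrial genome. WT replicate 2 is at 15961 CPM for the nuclear subunits against 2846 to 3308 in the others, and is lowest for the mitochondrial genes.

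With all 6 libraries, edgeR's quasi-likelihood test called 0 of the 38 subunits and 0 of the 8 assembly factors at an adjusted p of 0.05, as it did for 0% of all 16032 genes in either direction. DESeq2 and limma-voom also called 0 members. At an unadjusted p of 0.05, 11 subunits and 1 assembly factor passed, against 10.6% of all genes. The subunit log2 fold change was below 0 for 37 of 38, with a median of -1.47, while the median over all genes was 0.00. The smallest adjusted p among members was 0.385, which was also the smallest over all genes.

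In the 5 libraries without WT replicate 2, 16 of 38 subunits fell, 0 rose and 22 did not pass, against 10.4% of all 16395 genes lower and 9.39% higher. The median subunit log2 fold change was -0.20, a level of 0.872 of WT, and the median over all genes was 0.00. Among assembly factors 2 of 8 fell and 0 rose, with a median log2 fold change of -0.01. For 25 of 38 subunits every Ash1l+/- library lay below both WT libraries, against 25.3% of all genes, and for 4 every one lay above, against 23.9%. The same genes, 25, lay below all 3 WT libraries when WT replicate 2 was included (19.2% of all genes). On the deposited FPKM, limma on log2(FPKM + 1) called 1 subunit lower in the 5 libraries, among 17 of all 18756 genes, and on log2(FPKM + 0.1) it called 0, among 2 of all genes. Without WT replicate 1 the number of members called went from 18 to 11, and that of all genes from 3252 of 16395 to 796 of 17037.

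The libraries also differ from each other along gene length and GC content, and Nduf genes are short. Subunits had a median length of 1532 bases against 4100 for all genes tested, and a median GC share of 51.4% against 49.6%. With both trends removed from each of the 5 libraries, 14 subunits fell and 4 rose, against 4.41% and 2.63% of all genes, and 0 assembly factors passed. Of the subunits that fell, 11 were common to both analyses. The median subunit log2 fold change was then -0.13.

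**Figure D2:**
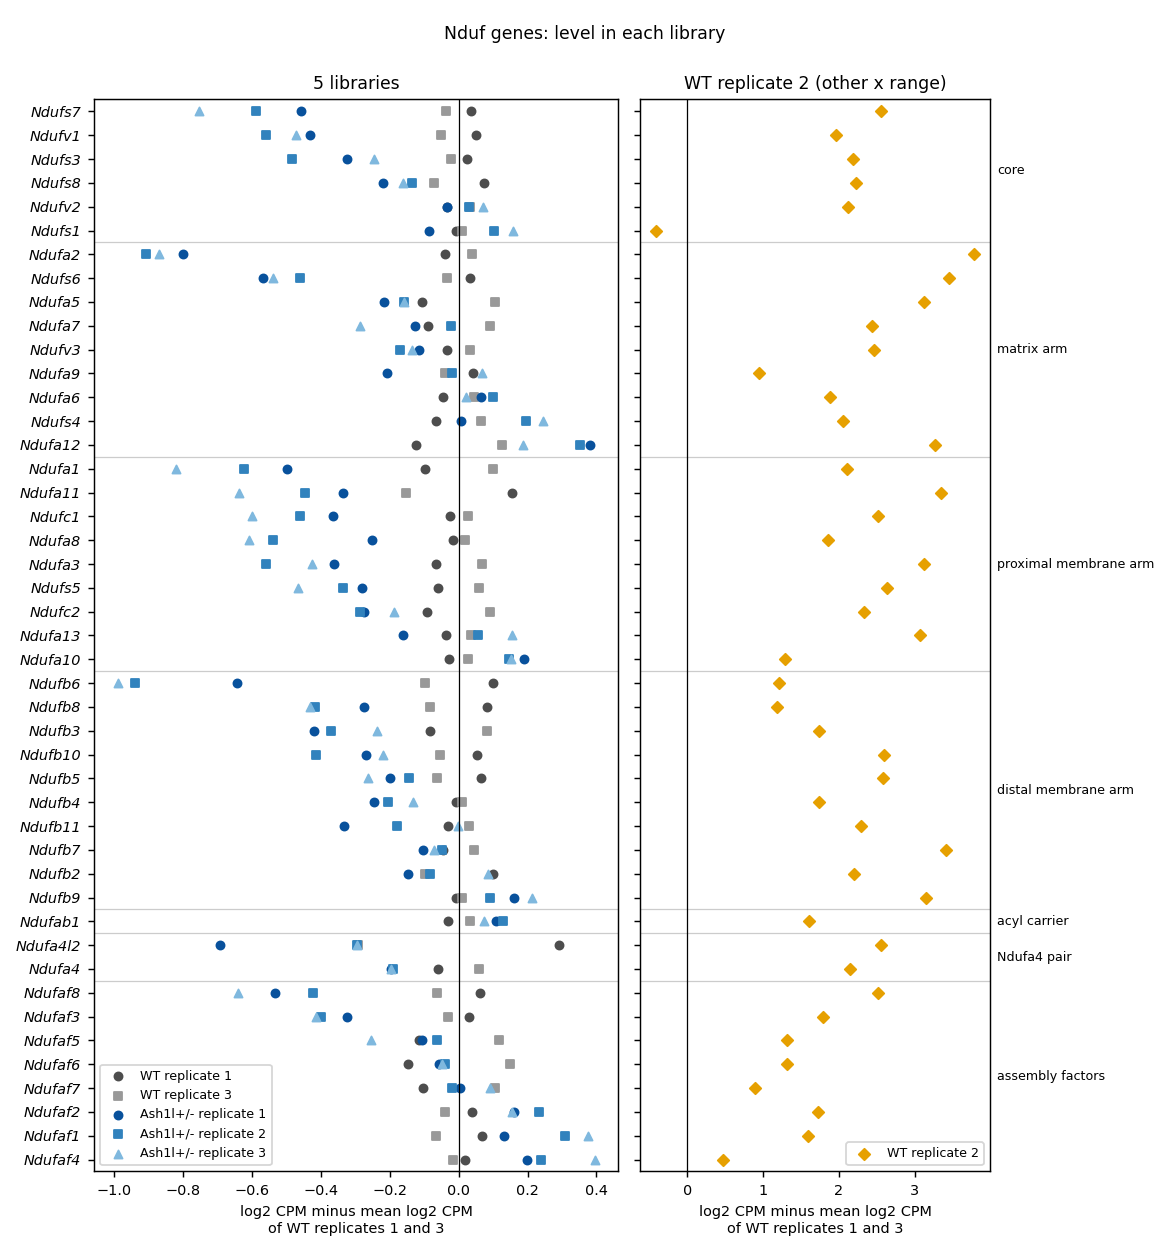
Each point is the log2 CPM of 1 gene in 1 library, less the mean log2 CPM of WT replicates 1 and 3, with 45 genes in rows grouped by role and WT replicate 2 in its own panel with a wider range. Most Ash1l+/- points of the membrane arm lie left of both WT points. Those of the subunits Ndufa12, Ndufab1, Ndufa10 and Ndufb9 and the assembly factors Ndufaf1, Ndufaf2 and Ndufaf4 lie right of both. In WT replicate 2 Ndufs1 is the 1 gene below 0.

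The 7 nuclear core subunits carry the flavin, the iron-sulfur clusters and the quinone site. Of these, 4 fell in the 5 libraries and 2 fell with trends removed. For this and the groups and lists below, 10.4% of all genes fell and 9.39% rose in the 5 libraries. With trends removed the shares were 4.41% and 2.63%. Ndufs7, which holds the last iron-sulfur cluster before ubiquinone (chromosome 10, 80249121 to 80256794), was at 104, 597 and 99.2 CPM in WT replicates 1, 2 and 3 and 74.03, 67.7 and 60.3 CPM in Ash1l+/- replicates 1, 2 and 3. All Ash1l+/- libraries were below all WT libraries, with a log2 fold change of -0.59 (SE 0.09, adjusted p = 1.87e-04) in the 5 libraries and -0.25 (adjusted p = 0.0268) with trends removed. Ndufv1, which binds NADH and the flavin (chromosome 19, 4007497 to 4012806), was at 181, 682 and 169 CPM in WT and 129.5, 119 and 126 CPM in Ash1l+/-, in the same order. It fell by the test, at -0.49 (SE 0.08, adjusted p = 3.36e-04) on the log2 scale and -0.23 (adjusted p = 0.0292) with trends removed.

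Ndufs3, a core subunit of the matrix arm next to the quinone site, was at 75.2, 336 and 72.8 CPM in WT and 59.1, 52.9 and 62.4 CPM in Ash1l+/-. The log2 fold change of -0.35 (SE 0.08, adjusted p = 0.00761) became -0.18 (adjusted p = 0.152) with trends removed. A processed pseudogene, Gm12251, holds near-identical sequence of Ndufs3 and had 92, 401 and 68 counts in WT and 46, 40 and 37 counts in Ash1l+/-. The call of Ndufs3 was also lost without WT replicate 1 or Ash1l+/- replicate 2. Over 6 libraries the log2 fold changes were -1.99 for Ndufs7, -1.46 for Ndufv1 and -1.47 for Ndufs3, and the median of the core subunits was -1.33. Among the core subunits that did not pass in the 5 libraries were Ndufs8 at -0.17, Ndufv2 at 0.02 and Ndufs1, the carrier of several iron-sulfur clusters, at 0.06 on the log2 scale. With trends removed the sign turned for all 3, to 0.03 for Ndufs8, -0.14 for Ndufv2 and -0.12 for Ndufs1, with 0 past the threshold. Ndufs1 had 144, 109 and 146 CPM in WT and 136, 155 and 161 CPM in Ash1l+/-, the 1 subunit lower in WT replicate 2 than in both other WT libraries.

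Of the 9 accessory subunits of the matrix arm, 2 fell in the 5 libraries and 7 did not pass, while 2 fell and 1 rose with trends removed. Ndufa2, a thioredoxin-like subunit at the tip of the arm (chromosome 18), was at 69.2, 981 and 72.9 CPM in WT and 40.8, 37.8 and 38.9 CPM in Ash1l+/-. Its log2 fold change of -0.86 (SE 0.08, adjusted p = 4.92e-06) was the lowest among members in the 5 libraries, and it was -0.80 (adjusted p = 1.04e-05) with trends removed and -3.26 (SE 1.13, adjusted p = 0.385) with all 6. Ndufs6, a zinc-binding subunit needed late in assembly (chromosome 13, 73319838 to 73328542), was at 50.2, 536 and 47.96 CPM in WT and 33.1, 35.6 and 33.7 CPM in Ash1l+/-. Both genes were lower in every Ash1l+/- library than in any WT library, and Ndufs6 had log2 fold changes of -0.52 (SE 0.09, adjusted p = 6.88e-04), -0.51 (adjusted p = 7.63e-04) with trends removed and -2.63 with all 6 libraries.

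Ndufa12, which sits at the junction of the matrix arm's modules, was at 19.02, 199.7 and 22.6 CPM in WT and 27.01, 26.4 and 23.6 CPM in Ash1l+/-. All Ash1l+/- libraries were above WT replicates 1 and 3, with a log2 fold change of 0.31 (SE 0.11, adjusted p = 0.0633) that passed with trends removed, at 0.40 (adjusted p = 0.0251). With WT replicate 2 included its direction turned, to -1.64 (SE 0.93, adjusted p = 0.395). The processed pseudogene Gm15920 holds a near-identical stretch of Ndufa12 and was at 21.5, 52.7 and 24.4 CPM in WT and 23.2, 22.9 and 22.8 CPM in Ash1l+/-, and reads could be split between the pair. The other accessory subunits of this arm were Ndufa5, Ndufa7, Ndufv3, Ndufa9, Ndufa6 and Ndufs4, from -0.18 for Ndufa5 to 0.15 for Ndufs4 on the log2 scale in the 5 libraries, with 0 past the threshold. Ndufs4, often mutated in inherited complex I deficiency, was at 55.97, 243 and 61.2 CPM in WT and 58.8, 67.1 and 69.4 CPM in Ash1l+/-, with overlap between the groups.

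The proximal membrane arm, where accessory subunits bind around the mitochondrially encoded proteins nearest the quinone site, had the lowest median of the larger groups, at -0.45 on the log2 scale in the 5 libraries. There 6 of 9 subunits fell, and 5 of 9 fell and 2 rose with trends removed, where the median was -0.28. These genes were also the shortest, with a median of 1022 bases. The medians were 2178 bases for core, 1701 for matrix arm and 1566.5 for distal arm subunits. The part of length in the lower median was not tested. Ndufa1, a small single-span subunit encoded on the X chromosome from 37187588 to 37191163, was at 43.02, 198 and 49.3 CPM in WT and 32.6, 29.9 and 26.05 CPM in Ash1l+/-, with log2 fold changes of -0.64 (SE 0.11, adjusted p = 5.06e-04) and, with trends removed, -0.74 (adjusted p = 4.60e-04). Ndufc1 was at 48.3, 281 and 50.1 CPM in WT and 38.2, 35.8 and 32.4 CPM in Ash1l+/-, with -0.47 (SE 0.09, adjusted p = 0.00217) and -0.57 (adjusted p = 9.89e-04). In both genes the groups did not overlap. The log2 fold changes over 6 libraries were -1.71 for Ndufa1 and -1.83 for Ndufc1, and the median of the proximal arm was -1.77.

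Ndufa11, an integral membrane subunit, was at 84.3, 768 and 68.1 CPM in WT and 60.02, 55.6 and 48.7 CPM in Ash1l+/-, with a log2 fold change of -0.47 (SE 0.10, adjusted p = 0.0031). It missed the threshold with trends removed, at -0.17 (adjusted p = 0.208), and without WT replicate 1. Ndufa8, which lies on the intermembrane space side, was at 88.02, 321 and 90.1 CPM in WT and 74.9, 61.3 and 58.4 CPM in Ash1l+/-, with -0.45 (SE 0.09, adjusted p = 0.00268) and -0.28 (adjusted p = 0.0509). Ndufa3 was at 51.96, 474 and 56.98 CPM in WT and 42.3, 36.9 and 40.5 CPM in Ash1l+/-, with -0.45 (SE 0.09, adjusted p = 0.00243) and -0.32 (adjusted p = 0.0234). Ndufs5, which despite its name is an accessory subunit on the intermembrane space side, was at 90.1, 583 and 97.8 CPM in WT and 77.3, 74.5 and 67.96 CPM in Ash1l+/-, with -0.36 (SE 0.08, adjusted p = 0.00483) and -0.35 (adjusted p = 0.00636). These 4 were also lower in every Ash1l+/- library than in every WT library, with log2 fold changes over all 6 from -2.49 for Ndufa11 to -1.36 for Ndufa8.

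The other 3 genes of the proximal arm did not pass in the 5 libraries. Ndufc2, a partner of Ndufc1, was at 48.1, 257 and 54.6 CPM in WT and 42.3, 42.1 and 45.03 CPM in Ash1l+/-, with -0.25 (SE 0.09, adjusted p = 0.0533), and passed with trends removed at -0.27 (adjusted p = 0.0366). Ndufa13, whose protein is also known as GRIM-19, was at 85.3, 737 and 89.6 CPM in WT and 78.2, 90.99 and 97.4 CPM in Ash1l+/-. It had a log2 fold change of 0.02 in the 5 libraries and of 0.41 (adjusted p = 0.0238) with trends removed, and 30.0% of its length is shared with exons of Tssk6 on the opposite strand. Ndufa10, a nucleoside kinase-like subunit, was at 182, 453 and 189 CPM in WT and 211, 205 and 206 CPM in Ash1l+/-, with 0.17 (SE 0.07, adjusted p = 0.115) and, with trends removed, 0.26 (adjusted p = 0.0131). It was above WT replicates 1 and 3 in every Ash1l+/- library and below WT replicate 2.

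In the distal membrane arm, the part farthest from the quinone site, 4 of 10 Ndufb subunits fell in the 5 libraries, and 4 fell and 1 rose with trends removed. Ndufb6 (chromosome 4, 40270591 to 40279421) was at 70.7, 153 and 61.6 CPM in WT and 42.3, 34.4 and 33.2 CPM in Ash1l+/-, with Ash1l+/- libraries at 0.555 of WT in the fit. Its log2 fold changes were -0.85 (SE 0.10, adjusted p = 4.06e-05), -0.89 (adjusted p = 1.89e-04) with trends removed and -1.38 (SE 0.38, adjusted p = 0.385) with all 6 libraries, where its unadjusted p of 0.0101 was the smallest among subunits. Exons of Smim27 on the opposite strand cover 39.0% of the length of Ndufb6, and Smim27 was at 0.543, 4.41 and 0.363 CPM in WT and 0.504, 0.644 and 0.334 CPM in Ash1l+/-.

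Ndufb8, a single-span subunit whose protein is widely used as a marker of complex I content, was at 112, 242 and 100.3 CPM in WT and 87.7, 79.5 and 78.8 CPM in Ash1l+/-, with log2 fold changes of -0.37 (SE 0.08, adjusted p = 0.00382) and -0.43 (adjusted p = 0.00239). Its call was lost without WT replicate 1. Ndufb3 was at 68.5, 242 and 76.8 CPM in WT and 54.2, 56.01 and 61.6 CPM in Ash1l+/-, with -0.34 (SE 0.08, adjusted p = 0.00832) and -0.45 (adjusted p = 8.61e-04), and missed the threshold without WT replicate 3. Ndufb10, a cysteine-rich subunit, was at 109.9, 642 and 102 CPM in WT and 87.8, 79.4 and 90.8 CPM in Ash1l+/-, with -0.30 (SE 0.08, adjusted p = 0.0133) and, with trends removed, -0.12 (adjusted p = 0.333), and missed it without WT replicate 1 or Ash1l+/- replicate 2. All 3 had no overlap between the groups, and with all 6 libraries their log2 fold changes were -0.88, -1.17 and -1.73.

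The other Ndufb genes ranged from -0.20 for Ndufb5 to 0.16 for Ndufb9 on the log2 scale in the 5 libraries. With trends removed Ndufb5 fell, at -0.26 (adjusted p = 0.0354), and Ndufb9 rose, at 0.38 (adjusted p = 0.0064). Ndufb9 was at 44.01, 393 and 44.5 CPM in WT and 49.5, 47.1 and 51.3 CPM in Ash1l+/-, above WT replicates 1 and 3 in every Ash1l+/- library. Ndufb7 was at 72.2, 798 and 76.9 CPM in WT and 69.3, 72.00 and 70.9 CPM in Ash1l+/-, with -0.07 (SE 0.08, adjusted p = 0.539) in the 5 libraries, 0.06 with trends removed and -2.16 with all 6. Ndufab1, the mitochondrial acyl carrier protein that is also needed for lipoate and iron-sulfur cluster synthesis, was at 62.2, 194 and 65.01 CPM in WT and 68.5, 69.5 and 66.8 CPM in Ash1l+/-, with 0.10 (SE 0.08, adjusted p = 0.372). The processed pseudogenes Ndufab1-ps and Gm4459 hold near-identical sequence of it.

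Ndufa4 was first described in complex I and its protein is now assigned to cytochrome c oxidase. By symbol, Ndufa4 and Ndufa4l2 are counted among the 38 genes and in their sums. The pair summed to 265, 1223 and 287 CPM in WT and 240, 242 and 240 CPM in Ash1l+/-, and 0 of the pair passed in the 5 libraries. The mean level of Ndufa4 per kilobase over the 5 libraries was the highest of the 38 genes, while Ndufa2 was higher in WT replicate 2. Ndufa4 was at 263, 1212 and 285 CPM in WT and 239, 240.1 and 239 CPM in Ash1l+/-. The Ash1l+/- libraries agreed closely and were below every WT library, with a log2 fold change of -0.19 (SE 0.07, adjusted p = 0.0632) in the 5 libraries, which passed with trends removed at -0.38 (adjusted p = 0.00137). Its paralog Ndufa4l2, induced by hypoxia in other cells, was lowest per kilobase, at 2.17, 10.5 and 1.45 CPM in WT and 1.10, 1.45 and 1.45 CPM in Ash1l+/-, with -0.45 (SE 0.34, adjusted p = 0.376).

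**Figure D3:**
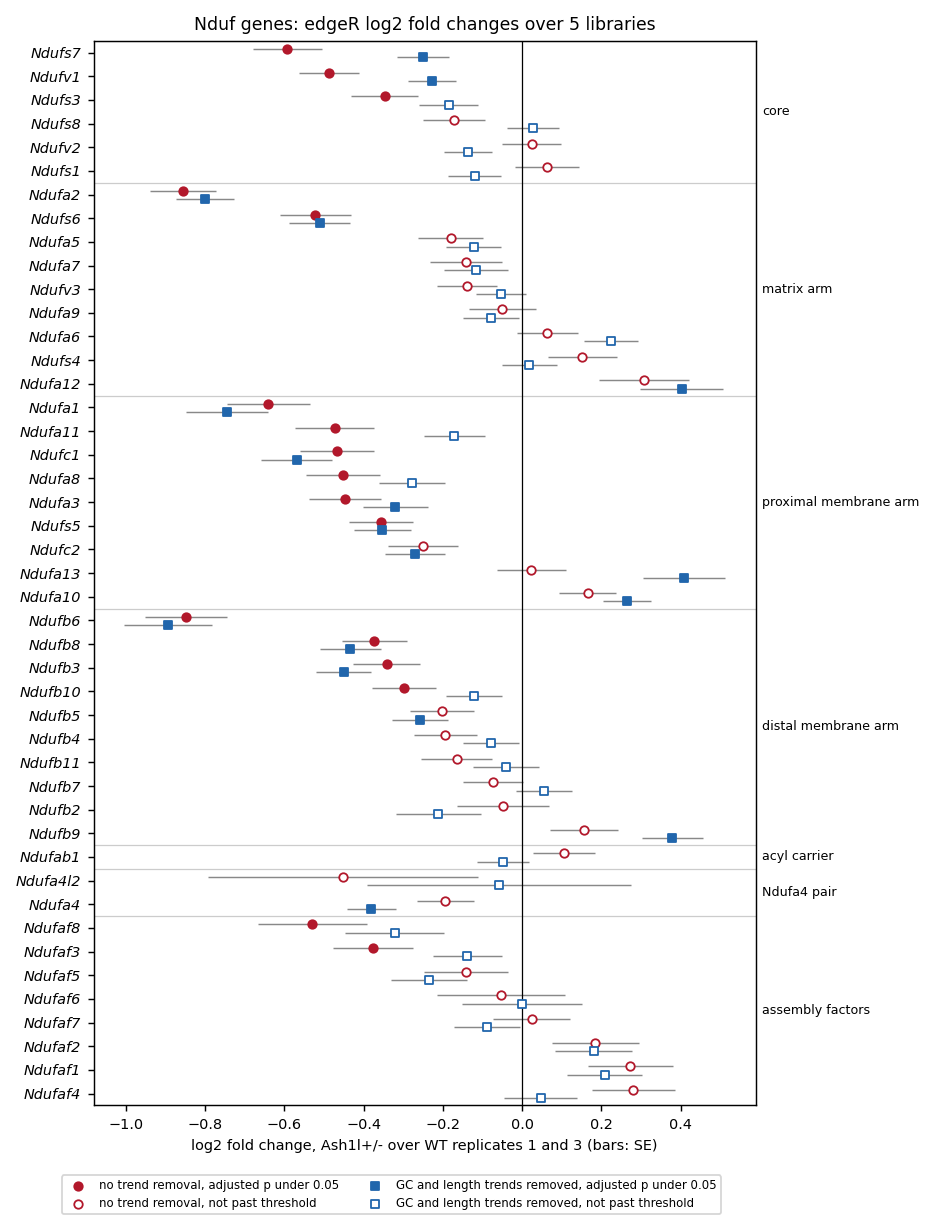
edgeR log2 fold changes with SE (bars) of Ash1l+/- against WT replicates 1 and 3 for 45 genes, without (circles) and with (squares) removal of GC and length trends, with filled symbols for an adjusted p under 0.05. Ndufa2 at -0.86 and Ndufb6 at -0.85 lie farthest left and stay there with trends removed, while filled squares on the right mark Ndufa12, Ndufa13, Ndufa10 and Ndufb9.

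Of the 8 assembly factors, Ndufaf8 and Ndufaf3 fell in the 5 libraries, and neither passed with trends removed or without WT replicate 1. Ndufaf8, which stabilises Ndufaf5, was at 14.1, 77.3 and 12.96 CPM in WT and 9.34, 10.1 and 8.68 CPM in Ash1l+/-, with -0.53 (SE 0.14, adjusted p = 0.0111) and, with trends removed, -0.32 (adjusted p = 0.137). Ndufaf3, which acts with Ndufaf4 on the quinone-binding module, was at 31.3, 106 and 29.97 CPM in WT and 24.4, 23.2 and 22.99 CPM in Ash1l+/-, with -0.38 (SE 0.10, adjusted p = 0.0126) and -0.14 (adjusted p = 0.38). Without Ash1l+/- replicate 2 the call of Ndufaf3 was also lost. Including WT replicate 2, the log2 fold changes were -1.89 for Ndufaf8 and -1.24 for Ndufaf3. Its partner Ndufaf4 was at 24.2, 33.1 and 23.6 CPM in WT and 27.5, 28.2 and 31.4 CPM in Ash1l+/-, above both remaining WT libraries in each Ash1l+/- library, with 0.28 (SE 0.10, adjusted p = 0.0637) in the 5 libraries. With trends removed Ndufaf4 was at 0.05 (adjusted p = 0.824).

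Ndufaf1, a factor for early membrane arm assembly, was at 25.7, 73.8 and 23.4 CPM in WT and 26.9, 30.4 and 31.8 CPM in Ash1l+/-, with 0.27 (SE 0.11, adjusted p = 0.0786) and, with trends removed, 0.21 (adjusted p = 0.209). Without Ash1l+/- replicate 1 both Ndufaf1 and Ndufaf4 passed, which took the number of assembly factors past the threshold from 2 to 4. Ndufaf2, a paralog of Ndufa12 that acts late in assembly, was at 19.9, 64.03 and 18.9 CPM in WT and 21.7, 22.8 and 21.6 CPM in Ash1l+/-, with 0.18 (SE 0.11, adjusted p = 0.249). Both Ndufaf1 and Ndufaf2 were higher in every Ash1l+/- library than in WT replicates 1 and 3, and highest of all in WT replicate 2.

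Ndufaf5, which hydroxylates an arginine of Ndufs7, was at 28.3, 75.9 and 33.2 CPM in WT and 28.4, 29.3 and 25.7 CPM in Ash1l+/-, with -0.14 (SE 0.11, adjusted p = 0.377). Ndufaf6, a factor for early assembly, was at 6.96, 19.1 and 8.55 CPM in WT and 7.42, 7.51 and 7.46 CPM in Ash1l+/-, with -0.05 (SE 0.16, adjusted p = 0.85). Ndufaf7, an arginine methyltransferase that acts early in assembly, was at 33.9, 67.8 and 39.2 CPM in WT and 36.5, 35.9 and 38.8 CPM in Ash1l+/-, with 0.02 (SE 0.10, adjusted p = 0.893). In these 3 genes the genotypes overlapped in the 5 libraries. Among 11 other assembly factors measured, such as Acad9, Ecsit and Tmem126b, 0 passed edgeR's quasi-likelihood test in the 5 libraries. At an unadjusted p of 0.05, 2 passed, against 33.2% of all genes. Log2 fold changes ranged from -0.28 for Ecsit to 0.22 for Tmem126b.

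Promoters of the nuclear genes were examined for letters of the regulators classically linked to respiratory chain genes. RefSeq promoters of GRCm38.p6, 250 bases before to 50 after the start site, were found for 40 of 46 members. Both strands were searched for GCGCA followed by any base and GCGC (the factor NRF1, encoded by Nrf1), CCGGAAG (ETS factors such as Gabpa), AAGGTCA (Esrra and other nuclear receptors) and ATGGCGGC (Yy1). The NRF1 letters were in 9 of 40 members, against 5.19% of all genes in the table, and the YY1 letters in 7 against 2.60%. Member promoters had a median GC share of 58.2% and all promoters of 52.4%, and these letters are rich in G and C, so the part of base composition in these shares was not tested. The ETS letters were in 6 of 40 (9.93% of all genes) and the AAGGTCA letters in 3 of 40 (5.38%). Among subunits with a promoter, the NRF1 letters were in 4 of 14 that fell in the 5 libraries and in 3 of 19 that did not, and the AAGGTCA letters in 1 of 14 and 2 of 19.

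The windows upstream of 4 start sites, each 250 bases, are given 5′ to 3′ on the gene's strand, with searched letters in capitals. They were chosen to show a fallen subunit with ETS letters, a fallen subunit with both the AAGGTCA and NRF1 letters, a subunit with AAGGTCA that did not pass, and an assembly factor with NRF1 letters that did not fall.
Ndufb6 (chr4:40279422-40279671, minus strand): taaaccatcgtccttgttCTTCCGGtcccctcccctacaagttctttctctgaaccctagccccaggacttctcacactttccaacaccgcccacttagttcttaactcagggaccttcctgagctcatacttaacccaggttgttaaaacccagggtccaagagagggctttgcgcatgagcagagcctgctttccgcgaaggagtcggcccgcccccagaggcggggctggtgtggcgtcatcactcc
Ndufs5 (chr4:123718187-123718436, minus strand): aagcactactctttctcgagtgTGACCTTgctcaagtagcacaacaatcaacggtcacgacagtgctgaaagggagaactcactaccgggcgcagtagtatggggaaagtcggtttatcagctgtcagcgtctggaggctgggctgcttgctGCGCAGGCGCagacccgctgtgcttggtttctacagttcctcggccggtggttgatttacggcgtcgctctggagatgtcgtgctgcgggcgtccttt
Ndufb2 (chr6:39592315-39592564, plus strand): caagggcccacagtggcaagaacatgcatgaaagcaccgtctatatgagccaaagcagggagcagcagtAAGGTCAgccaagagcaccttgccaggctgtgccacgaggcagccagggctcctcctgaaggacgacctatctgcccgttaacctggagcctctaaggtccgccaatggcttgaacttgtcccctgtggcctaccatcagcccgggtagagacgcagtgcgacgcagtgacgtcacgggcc
Ndufaf4 (chr4:24897833-24898082, plus strand): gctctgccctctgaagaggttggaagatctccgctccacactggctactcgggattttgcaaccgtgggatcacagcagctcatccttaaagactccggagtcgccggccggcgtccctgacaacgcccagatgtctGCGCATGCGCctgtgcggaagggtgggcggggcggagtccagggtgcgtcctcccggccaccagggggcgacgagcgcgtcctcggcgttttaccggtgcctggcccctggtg
In Ndufb6 the ETS letters, on the reverse strand, begin 232 bases before the start site. In Ndufs5 the AAGGTCA letters, on the reverse strand, begin 228 bases before it and the NRF1 letters 98 bases before it. In Ndufb2 they begin 181 bases and in Ndufaf4 113 bases before it. Such matches describe the sequence and do not show binding.

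The factors themselves were among 13 genes listed as regulators of mitochondrial gene expression, of which 2 fell, 2 rose and 9 did not pass in the 5 libraries. Esrra, an orphan nuclear receptor that activates respiratory chain genes, was at 76.1, 81.1 and 68.4 CPM in WT and 55.3, 37.8 and 42.02 CPM in Ash1l+/-. It fell with log2 fold changes of -0.68 (SE 0.12, adjusted p = 7.59e-04) and, with trends removed, -0.62 (adjusted p = 0.00272), and was at -0.74 (SE 0.19, adjusted p = 0.385) with all 6 libraries. Ppargc1a, its coactivator, was at 23.1, 18.98 and 26.3 CPM in WT and 31.6, 30.96 and 36.3 CPM in Ash1l+/-, a rise of 0.42 (SE 0.11, adjusted p = 0.0103) that missed the threshold with trends removed, at 0.19 (adjusted p = 0.252), where its relative Ppargc1b rose instead, at 0.74 (adjusted p = 0.037). Gabpa rose with 0.37 (SE 0.10, adjusted p = 0.0143) and Polrmt, the mitochondrial RNA polymerase, fell with -0.36 (SE 0.12, adjusted p = 0.0355), and neither passed with trends removed, at 0.15 and -0.02. Nrf1, Yy1 and Tfam had log2 fold changes of 0.06, -0.01 and 0.04. With all 6 libraries 0 of the 13 passed, and 3 did at an unadjusted p of 0.05, against 10.6% of all genes.

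The other 7 core subunits are encoded by the mitochondrial genome. In the 5 libraries 0 of 7 passed edgeR's quasi-likelihood test, with a median log2 fold change of 0.14. At an unadjusted p of 0.05, 2 passed, against 33.2% of all genes. With trends removed mt-Nd6 fell, at -0.40 (adjusted p = 0.00553), and the other 6 did not pass. In the 6 libraries 0 of 7 passed (0 at an unadjusted p of 0.05), with a median of 0.48. Their summed level was 5730, 3673 and 7411 CPM in WT and 6008, 7669 and 7999 CPM in Ash1l+/-, with overlap between the groups. In WT replicate 2, 5 of 7 were below both other WT libraries, such as mt-Nd4 at 1413, 181 and 1769 CPM in WT and 1439, 1725 and 1805 CPM in Ash1l+/-. The exceptions were mt-Nd3 and mt-Nd6, the latter at 465, 1457 and 512 CPM in WT and 368, 469 and 557 CPM in Ash1l+/-. The gene mt-Nd6 lies on the other strand of the mitochondrial genome from the other subunit genes, and the library kit as named does not mark strand.

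Neighbouring steps of mitochondrial metabolism were read from lists of complex II and citric acid cycle genes. Of the 4 subunits of complex II, which feeds electrons from succinate to ubiquinone, Sdhb fell with -0.32 (SE 0.07, adjusted p = 0.00483) and the other 3 did not pass. Sdhb missed the threshold with trends removed, at -0.17 (adjusted p = 0.101). Of 13 citric acid cycle genes 0 fell and 1 rose, Dld, with 0.25 (SE 0.08, adjusted p = 0.0393), and it missed the threshold with trends removed, at 0.03 (adjusted p = 0.82). The median log2 fold change of those 13 genes was -0.03, and that of complex II was -0.16. Including WT replicate 2, 0 genes of either list passed (0 at an unadjusted p of 0.05), with medians of -0.05 and -0.36, and Sdhb was at -1.10 (SE 0.48, adjusted p = 0.385). Differences between these lists and the Nduf genes were not tested.

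WT replicate 2 had more of nearly every nuclear complex I message. It was above both other WT libraries for 37 of 38 subunits and for 8 of 8 assembly factors, against 44.7% of all genes tested (48.9% were below both). Relative to the mean of WT replicates 1 and 3, its subunit levels ranged from 0.752 times for Ndufs1 to 13.8 times for Ndufa2, with a median log2 difference of 2.24, while the median over all genes was -0.06. Ndufs6, Ndufb7 and Ndufa11 were at 10.9, 10.7 and 10.1 times, and Ndufa9 at 1.92 times. Assembly factors differed by a median of 1.43 on the log2 scale and complex II by 0.51. With 1 library there is no test of these differences.

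Summed levels of several other cell type markers differed between libraries, and their part in the results was not tested. Skeletal muscle markers, 12 genes, summed to 4.001, 40.05 and 5.13 CPM in WT and 3.02, 3.59 and 3.06 CPM in Ash1l+/-, with 2 to 5 of the genes at 0 in each library. Erythrocyte markers summed to 81.2, 628 and 102 CPM in WT and 31.7, 94.9 and 52.8 CPM in Ash1l+/-, and 3 of 6 tested fell in the 5 libraries. In the 5 libraries 4 of 8 Schwann cell and 3 of 8 fibroblast markers fell and 5 of 8 satellite glia markers rose. Of all genes, 10.4% fell and 9.39% rose. Schwann cell markers summed to 5001, 5898 and 4830 CPM in WT and 4722, 3976 and 4283 CPM in Ash1l+/-, fibroblast markers to 877, 649.9 and 869.9 against 740.2, 776 and 696 CPM, and satellite glia markers to 4227, 12271 and 4136 against 4483, 3730 and 3858 CPM. With trends removed, 2 Schwann cell, 3 fibroblast, 1 erythrocyte and 1 neutrophil markers fell, against 4.41% of all genes. In that fit 1 satellite glia, 1 vascular and 1 central nervous system markers rose, against 2.63% of all genes. Among sensory neuron markers 3 then rose (Tubb3, Prph and Nefh) and 1 fell (Pou4f1). Without trend removal, 2 of 12 sensory neuron markers fell in the 5 libraries, 2 rose and 8 did not pass. Of 8 vascular markers 2 rose, of 8 macrophage markers 0 passed (1 at an unadjusted p of 0.05), of 6 neutrophil markers tested 1 fell, of 4 central nervous system markers tested 1 rose, and of 3 adipocyte markers tested 1 fell.

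Short subunit genes had the lower fold changes. In the 5 libraries 7 of 10 subunits under 1000 bases fell, 5 of 14 from 1000 to under 2000 bases and 4 of 14 of at least 2000 bases. Their median log2 fold changes were -0.40, -0.19 and -0.06, and with trends removed -0.40, -0.12 and -0.10. Across the 38 subunits, log2 gene length and log2 fold change had a Pearson r of 0.558 and a Spearman rho of 0.535, and across all genes of 0.166 and 0.279. GC share and log2 fold change had an r of -0.168 and a rho of -0.170 across subunits, and of -0.438 and -0.552 across all genes. The points share the same 5 libraries, so these are descriptions. For the difference of WT replicate 2, the r with length across subunits was -0.412.

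**Figure D4:**
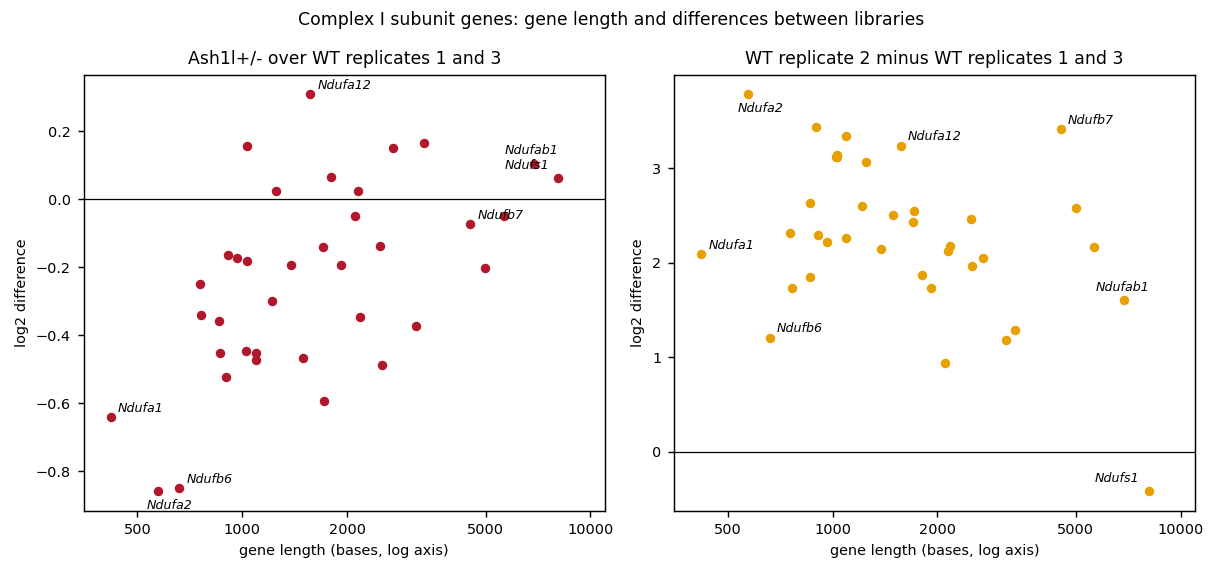
Gene length (log axis, bases) against the log2 fold change of Ash1l+/- over WT replicates 1 and 3 (left) and the log2 difference of WT replicate 2 from the mean of WT replicates 1 and 3 (right), 1 point for each of 37 subunit genes. Ndufa1, Ndufa2 and Ndufb6, the 3 shortest, are lowest on the left at -0.64 to -0.86, and Ndufs1, the longest, is lowest on the right.

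Per kilobase of gene length, levels of the genes counted as subunits were led by Ndufa4, whose protein is now assigned to cytochrome c oxidase. Over the 5 libraries it was highest at 183 ± 14.99 CPM per kilobase (SD, n = 5, both genotypes together). Among the next were Ndufs5 at 94.8 ± 14.1, Ndufa2 at 90.8 ± 30.7, Ndufa8 at 86.6 ± 17.01, Ndufa1 at 86.3 ± 23.1, Ndufb3 at 83.1 ± 12.2 and Ndufs8 at 82.6 ± 6.54 CPM per kilobase. The SD holds both genotypes, and Ndufa2 led these 6 in every WT library and in no Ash1l+/- library. The middle of the order ran from Ndufb11 at 78.9 ± 8.03 to Ndufs4 at 23.1 ± 2.07 CPM per kilobase. Ndufs1, Ndufb7, Ndufa12 and Ndufb5 followed at 18.4 ± 1.23, 15.98 ± 0.628, 15.1 ± 2.06 and 12.4 ± 1.11. Ndufb7 was above Ndufa12 in WT replicates 1 and 3 and in Ash1l+/- replicate 3, and below it in Ash1l+/- replicates 1 and 2. Ndufab1 at 9.65 ± 0.423, Ndufb2 at 3.68 ± 0.290 and Ndufa4l2 at 1.39 ± 0.359 CPM per kilobase were lowest.

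**Figure D5:**
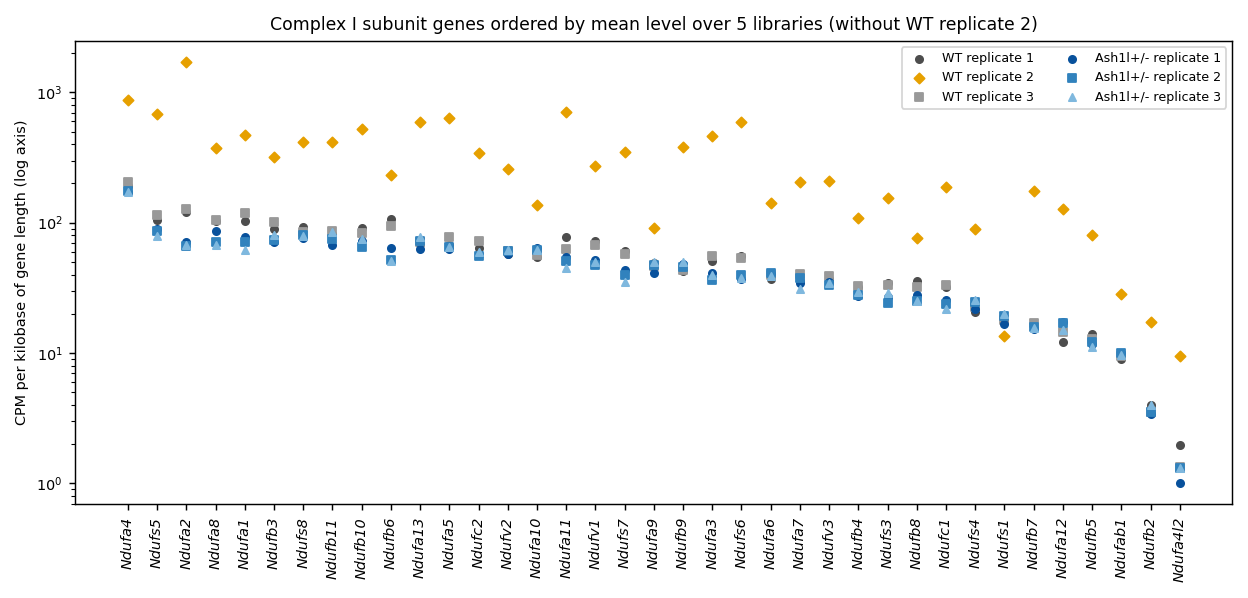
CPM per kilobase of gene length (log axis) of 37 subunit genes in each of the 6 libraries, ordered by the mean over the 5 libraries without WT replicate 2. Ndufa4 leads in the 5 libraries and Ndufa2 in WT replicate 2, which lies above the others at every gene but Ndufs1.

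The deposited gene lengths of Ndufs1, Ndufab1, Ndufb2, Ndufb5 and Ndufb7 were 8086, 6883, 5628, 4995 and 4522 bases, longer than those of all other subunits, which lowers their levels per kilobase. Across subunits the levels per kilobase correlated at r = 0.967 to 0.996 on the log2 scale between any pair of the 5 libraries and at 0.811 to 0.858 between WT replicate 2 and the others. Ndufa2 changed its place in this order: at 121 and 128 CPM per kilobase in WT replicates 1 and 3 it came next after Ndufa4, and at 66.1 to 71.3 in Ash1l+/- it was below Ndufs8 in each library. Exons of 19 of 46 members overlap another gene, in most cases on the opposite strand, and 6 have a near-identical stretch in another gene (at least 97% over at least 200 bases), so their counts are less certain. Those with the largest shared share of length were Ndufaf2 (65.7%), Ndufb6 (39.0%), Ndufa13 (30.0%) and Ndufb9 (19.5%). For Ndufa2, 11.5% is shared with Tmco6, which was at 14.4, 14.7 and 12.6 CPM in WT and 11.4, 9.50 and 8.79 CPM in Ash1l+/-, with -0.44 (SE 0.15, adjusted p = 0.0399) in the 5 libraries.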

How the data were processed

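RNA from dorsal root ganglia of 3 WT and 3 Ash1l+/- libraries was sequenced in bulk. Per the submitters' processing notes, the tools were HISAT2 2.0.5 and featureCounts 1.5.0-p3 on GRCm38 (mm10), with strand setting and annotation release not stated there. The authors deposited whole-number counts per gene, the main input here, and FPKM, used only as an alternative. Gene symbols, lengths and biotypes are those of the deposited table.

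Counts were filtered with filterByExpr, scaled by TMM and tested with edgeR 4.0.16 in R 4.3.3 (quasi-likelihood test, genotype as the only term, Benjamini-Hochberg adjustment over all genes tested, threshold 0.05), once with all 6 libraries and once without WT replicate 2. Printed CPM use the TMM factors of the 6 libraries. For the removal of GC and length trends, each library's departure from the mean log2 CPM was fitted by loess (span 0.3) on GC content and on gene length, and the fit entered as an offset. DESeq2 1.42.0, limma 3.58.1 and other alternatives are in the closing section. The test was tried on simulated counts with no library set apart and no GC or length trends, so that trial does not cover these features.

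The members, lists and tests were chosen with earlier results of these data known. Values per library follow a rule on role and fold change, and those of Ndufs1, Ndufs4, Ndufb7, Ndufb9, Ndufc2, Ndufa10, Ndufa13, mt-Nd4, mt-Nd6, Gm15920, Gm12251, Smim27 and Tmco6 were added after their values were seen. Also outside that rule are the library values of Ndufa8, Ndufa3, Ndufs5 and Ndufb10, which fell in the 5 libraries, and of Esrra, Ppargc1a, Ndufs6b and Ndufb1-ps. The other 5 Nduf rows of the table, not protein-coding, are not members. The values of 1 member are not reported here, and it is left out of the plots of single genes but kept in the counts, sums and medians. The labels do not say whether replicate numbers pair the samples. Deviations from the group means correlated at -0.04 to 0.05 between same-numbered libraries. The WT means include WT replicate 2, so this cannot exclude pairing.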

Additional observations from a re-analysis of the deposited data

How the results depend on the processing

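In the 5 libraries, 16 subunits were lower in the main analysis and 14 to 18 with DESeq2, limma-voom, unscaled library totals, RLE factors, a CPM filter or none, the trends removed or the replicate block. With limma on log2(FPKM + 1) the numbers were 1 subunit, 0 assembly factors and 1 member (17 of all 18756 genes), and on log2(FPKM + 0.1) 0, 0 and 0 (2 of all genes), and the cause was not tested. With GC and length trends removed, 4 subunits were higher, 0 assembly factors passed and the subunit median was -0.13. Leaving out each library gave 11 to 16 lower subunits, 0 to 4 assembly factors, 11 to 20 members and a median of -0.23 to -0.20. With all 6 libraries, leaving out each gave 0 to 16 lower subunits, 0 to 2 assembly factors, 0 to 18 members and a median of -1.82 to -0.20, with the upper end in each case without WT replicate 2. No other alternative with 6 libraries moved a count from 0. Library totals moved the median over all genes to 0.13 with 6 libraries.

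Directions turned with the trends removed for Ndufaf4 (-0.37) and Ndufs1 (-0.24) with 6 libraries, and with 5 for Ndufab1 (-0.048), Ndufaf7 (-0.088), Ndufs8 (0.028), Ndufv2 (-0.14), Ndufs1 (-0.12) and Ndufb7 (0.055). Leaving out each of 6 libraries, log2 fold changes ranged from -2.10 to 0.31 for Ndufa12, from -0.92 to 0.10 for Ndufab1, from -0.73 to 0.27 for Ndufaf1, from -0.92 to 0.18 for Ndufaf2 and from -0.52 to 0.024 for Ndufaf7, each above 0 without WT replicate 2. Leaving out 1 of the 5, Ndufaf7 ranged from -0.082 to 0.13 and Ndufaf6 from -0.20 to 0.095. The replicate block gave 18 lower subunits and 21 members in the 5 libraries, with Ndufa4 and Ndufaf4 passing. The labels give a number and state no pairing. By their deviations from the group means, 2 of 6 libraries correlated best with their own number, which does not settle it.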

Other observations

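The 5 Nduf rows that are not protein-coding were Ndufb1-ps, annotated as a long noncoding RNA, and the processed pseudogenes Ndufab1-ps, Ndufs6b, Ndufb4c and Ndufa11b, the last with 0 reads in every library. Ndufs6b had 10, 103 and 18 counts in WT replicates 1, 2 and 3 and 41, 43 and 58 counts in Ash1l+/- replicates 1, 2 and 3. Its log2 fold change in the 5 libraries was 1.78 (SE 0.39, adjusted p = 0.00363 in edgeR's quasi-likelihood test), the opposite direction to its parent gene Ndufs6 at -0.52. With all 6 libraries it was -0.27 (adjusted p = 0.869). Ndufb1-ps was at 20.99, 190.4 and 30.8 CPM in WT and 30.0, 27.2 and 27.2 CPM in Ash1l+/-, with 0.12 (SE 0.13, adjusted p = 0.545) in the 5 libraries.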
